A study of Danio rerio with 6 samples.

Results

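The transcription factors of the proline and acidic amino acid-rich basic leucine zipper (PAR bZIP) family and the repressors of the nfil3 family were examined in RNA of zebrafish larvae exposed to the antipsychotic Lurasidone. The members were taken by gene symbol from the deposited expression table: the PAR bZIP genes dbpa, dbpb, tefb, hlfa and hlfb, and the nfil3 genes nfil3, nfil3-5 and nfil3-6. They were 8 of the 39214 genes in the table, and the PAR bZIP gene tefa was not included among them. The larvae were wild type fish of the AB strain at 5 days post-fertilization (dpf), one group exposed to 4 mg/L Lurasidone and the other a control, for which the methods name a solvent control of dimethyl sulfoxide. Each group had 3 libraries, described as separate biological replicates. The methods say that entire larvae were collected and that RNA came from brain tissue, and they place the start of exposure at 5 hours post-fertilization (hpf), whereas the sample labels give 3 hpf. The embryos were raised in a light-dark cycle and were not fed, and the clock time of collection was not given in the sources used here.

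PAR bZIP proteins bind as dimers to a DNA element called the D-box and activate transcription, while NFIL3 proteins bind the same element and repress it. In vertebrates both classes belong to the output of the circadian clock: the E-box of the CLOCK and BMAL proteins drives Dbp in mouse, and the Rev-erb receptors repress Nfil3 in mouse. In fish the D-box also serves the direct response of genes to light, and teleosts carry duplicated PAR bZIP genes and additional nfil3 genes.

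The values were FPKM, fragment numbers relative to gene model length and a size term per library, and the number of fragments on each gene was read back from them. The fragments on genes came to 84.5% of the size term in control replicate 3 and 104% in control replicate 2. The size term was thus not the plain total of fragments on genes, and how it was set was not worked out. The Lurasidone libraries held 11749887 to 12553624 fragments on genes, and the control libraries held 12210400 to 15107664. The summed markers of liver, exocrine pancreas, muscle, intestine, lens, blood, brain and retina were above 0 in every library. The markers of these lists that were at 0 in all 6 libraries were 0, and single markers were not checked library by library. In bulk RNA, fewer cells of a type and less RNA per cell cannot be told apart. The limma test was run on genes that reached 0.5 FPKM in 3 or more of the 6 libraries. It used log2(FPKM + 1), a scale on which changes of low genes appear smaller. The fit covered 23409 genes, 7 of the 8 members among them. A differentially expressed gene (DEG) had an adjusted p no higher than 0.05 together with a log2 fold change whose size was 1 or more. For a single gene, 3 libraries against 3 cannot give a two-sided exact permutation p below 0.1.

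Of the 7 tested members, 2 were DEGs higher in Lurasidone, nfil3-6 and dbpb, and 0 were DEGs that were lower. Among all tested genes, 2.61% were DEGs with higher and 1.22% DEGs with lower expression. By adjusted p alone, 4 members were higher (nfil3-6, tefb, dbpb and dbpa), against 5.79% of all tested genes. The members with an adjusted p of at most 0.05 and lower expression were 0, against 3.9% of all tested genes. Lower members at an unadjusted limma p under 0.05 were also 0, as were lower members by limma voom on the fragments. For these measures the share of all tested genes was not worked out. The libraries of the groups did not overlap in 5 members with higher values, the 4 above and hlfa, against 17.1% of all tested genes. They did not overlap in 1 member with lower values, nfil3-5, against 16.2% of all tested genes. The median log2 fold change of the tested members was 0.93, and that of all tested genes was -0.02.

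**Figure D1:**
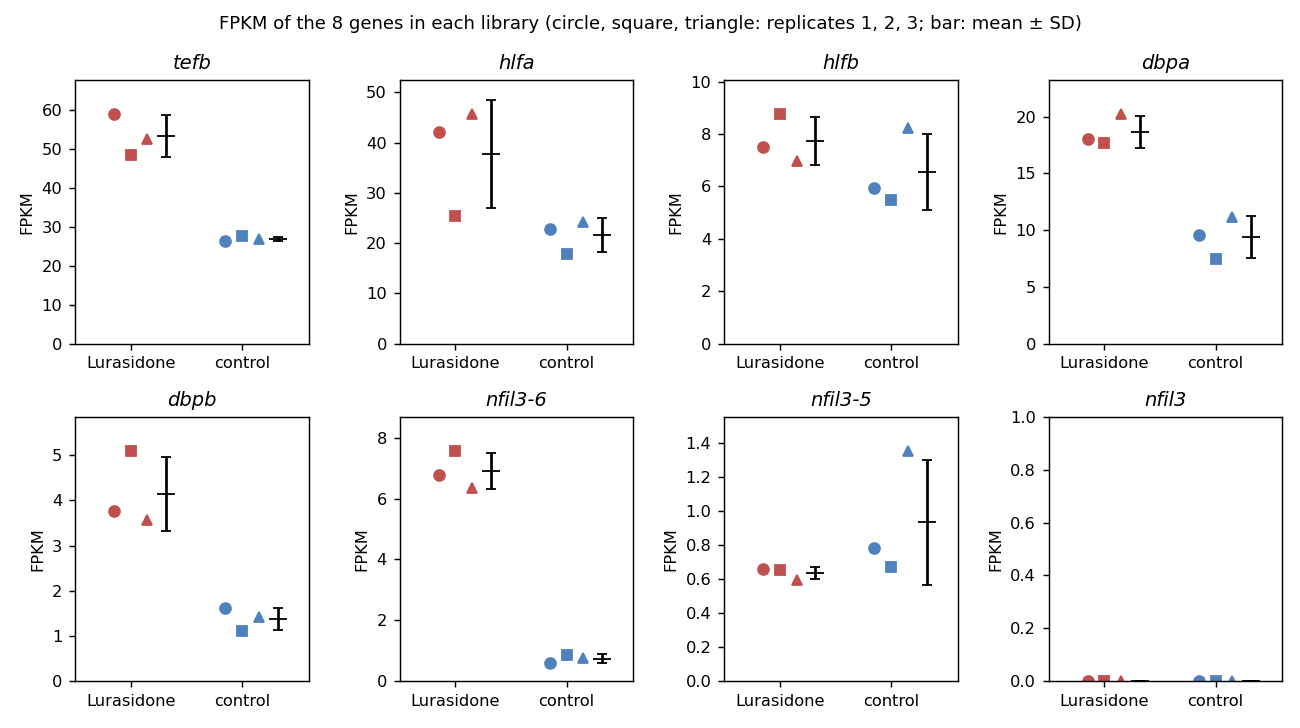
FPKM of the 8 members in each of the 3 Lurasidone libraries (red, left) and the 3 control libraries (blue, right), with the mean and SD in black and a separate vertical axis per gene. In nfil3-6 the Lurasidone libraries lay between 6.37 and 7.55 FPKM and the control libraries between 0.577 and 0.860 FPKM, whereas nfil3 was at 0 in every library.

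In FPKM, which is relative to model length, the order of the members in Lurasidone larvae was tefb, hlfa, dbpa, hlfb, nfil3-6, dbpb, nfil3-5 and nfil3. In control larvae nfil3-6 stood lower, and the order was tefb, hlfa, dbpa, hlfb, dbpb, nfil3-5, nfil3-6 and nfil3. In the Lurasidone libraries the only neighbors in this order whose ranges overlapped were hlfb and nfil3-6. In the control libraries the ranges of dbpa and hlfb, of dbpb and nfil3-5, and of nfil3-5 and nfil3-6 overlapped. The level of nfil3-6 was thus among those of the least abundant members in the control libraries and above that of the primary dbpb model in each Lurasidone library. With a further gene model of dbpb on an alternate contig added, dbpb averaged 7.22 FPKM in Lurasidone and was above nfil3-6 in Lurasidone replicates 2 and 3.

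The PAR bZIP gene with the highest level was tefb (ENSDARG00000098103, chromosome 3, 5052822 to 5067585, minus strand, build GRCz11), a paralog of the gene for thyrotroph embryonic factor. It had 58.9, 48.4 and 52.5 FPKM in the Lurasidone libraries, against 26.4, 27.5 and 26.7 FPKM in the control libraries. Every Lurasidone library was above every control library. The means were 53.2 ± 5.31 FPKM in Lurasidone and 26.9 ± 0.579 FPKM in control (SD, n = 3 each), a ratio of 1.98. On log2(FPKM + 1) the difference was 0.96 (95% interval 0.62 to 1.29, SE 0.15, adjusted p = 0.0060 by limma). tefb rose, and its fold change was below that required of a DEG. The control libraries were close to each other, with a coefficient of variation of 2.15%, where counting alone gives 3.65%. Without Lurasidone replicate 2 the log2 fold change was 1.02 and under quantile normalization it was 1.06, both past the fold threshold.

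The gene dbpa (ENSDARG00000063014, chromosome 19, 10177115 to 10196370, minus strand) is 1 of the 2 paralogs for D-site binding protein, which in mouse liver is among the most strongly rhythmic transcription factors. It had 18.0, 17.7 and 20.2 FPKM in the Lurasidone libraries, against 9.60, 7.43 and 11.2 FPKM in the control libraries. The groups did not overlap, and the lowest control library was replicate 2. The means were 18.6 ± 1.38 FPKM in Lurasidone and 9.40 ± 1.87 FPKM in control (SD, n = 3 each), with the same ratio of 1.98 as in tefb. In log2 units dbpa rose by 0.93 (95% interval 0.54 to 1.32, SE 0.17, adjusted p = 0.013 by limma). Without Lurasidone replicate 3 the log2 fold change of dbpa was 0.87 (adjusted p = 0.054 by limma). With control replicate 1 left out it was 0.95 (adjusted p = 0.057 by limma). Without control replicate 3 it was 1.05, which passed both thresholds of a DEG.

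The second paralog, dbpb (ENSDARG00000057652, chromosome 16, 13599693 to 13613475, minus strand), was less abundant and was a DEG. It had 3.76, 5.09 and 3.57 FPKM in the Lurasidone libraries, against 1.61, 1.103 and 1.41 FPKM in the control libraries. The highest value was that of Lurasidone replicate 2, and the groups did not overlap. The means were 4.14 ± 0.825 FPKM in Lurasidone and 1.37 ± 0.254 FPKM in control (SD, n = 3 each), a ratio of 3.01. limma gave dbpb a log2 fold change of 1.11 (95% interval 0.69 to 1.52, SE 0.18, adjusted p = 0.0082). On log2(FPKM + 1) its fold change passed the threshold by little, and without Lurasidone replicate 2 it was 0.98. With a pseudocount of 0.1 it was 1.52 and by limma voom on the fragments 1.57, and the log2 ratio of mean FPKM was 1.59. dbpb was annotated as bZIP, but its description lacked the basic zipper domain entry that the other members had. Genes of the table with DBP as protein match were 0, so dbpa and dbpb were placed by symbol.

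A further gene model of nearly the same length, 5178 against 5177 bases, lay on an alternate contig of chromosome 16 and had no symbol. It was treated as a copy of dbpb from its position and length, a choice made after the values were seen. The copy had 2.85, 3.31 and 3.09 FPKM in the Lurasidone libraries, against 0.778, 0.987 and 0.864 FPKM in the control libraries. It was higher in every Lurasidone library, by 1.12 in log2 units (adjusted p = 0.0047 by limma, SE 0.16). The copy held 39.5 to 46.4% of the fragments of both models in the Lurasidone libraries and 32.6 to 47.2% in the control libraries. Whether the counting split fragments between the models or counted them in both cannot be told from the table, so the level of dbpb is uncertain. With both models added, dbpb had 7.22 ± 1.02 FPKM in Lurasidone and 2.25 ± 0.149 FPKM in control (SD, n = 3 each). Summed in this way, dbpb rose by 1.33 in log2 units (adjusted p = 0.0022 by limma, SE 0.16).

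**Figure D2:**
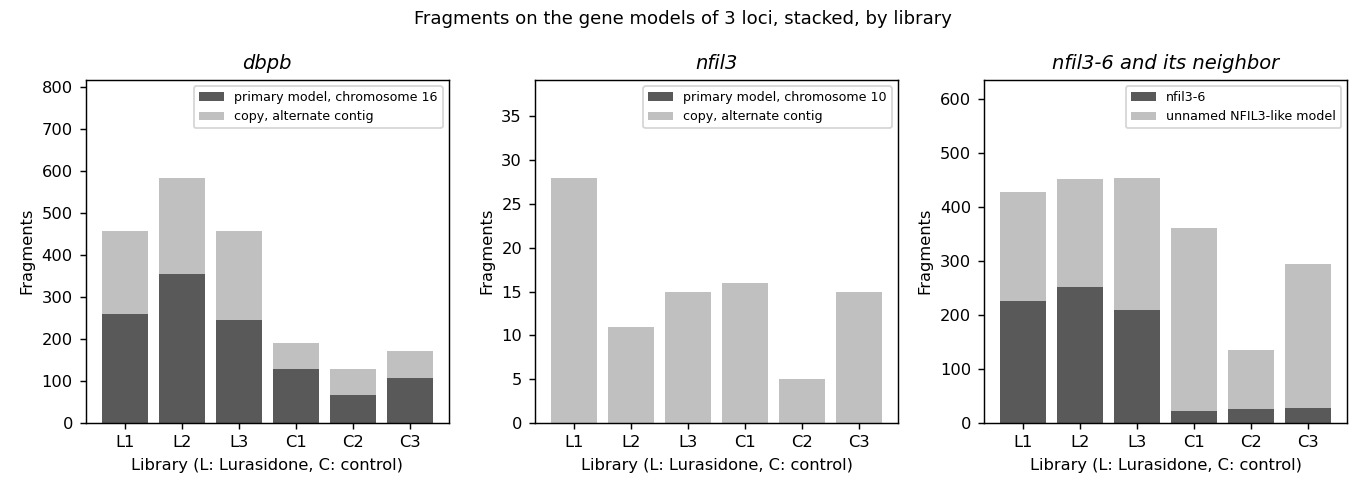
Fragments on the gene models of dbpb, of nfil3 and of nfil3-6 with its neighbor, stacked by library (L1 to L3 Lurasidone, C1 to C3 control). The models of dbpb were both higher in the Lurasidone libraries, the primary nfil3 model had 0 fragments throughout, and of the models at the nfil3-6 locus nfil3-6 had 209 to 251 fragments in Lurasidone and 22 to 27 in control libraries.

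The genes hlfa and hlfb are paralogs for hepatic leukemia factor, a PAR bZIP protein first described in a human leukemia fusion. hlfa (ENSDARG00000074752, chromosome 3, 11585298 to 11624694, minus strand) had 42.2, 25.5 and 45.7 FPKM in the Lurasidone libraries, against 22.8, 17.8 and 24.1 FPKM in the control libraries. The groups did not overlap, but Lurasidone replicate 2 was only 1.35 FPKM above the highest control library. The means were 37.8 ± 10.8 FPKM in Lurasidone and 21.6 ± 3.34 FPKM in control (SD, n = 3 each), a ratio of 1.75. With a log2 fold change of 0.75 (SE 0.23, 95% interval 0.23 to 1.26), hlfa did not pass the test (limma adjusted p = 0.071). Without Lurasidone replicate 2 the log2 fold change was 1.00 and the limma adjusted p was 0.027, and limma voom on the fragments gave 0.77 and an adjusted p of 0.030. A gene model on the opposite strand overlapped hlfa over 2312 bases and held 1 to 9 fragments per library, against 615 to 1782 on hlfa.

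hlfb (ENSDARG00000061011, chromosome 12, 32159272 to 32165227, plus strand) had 7.49, 8.76 and 6.97 FPKM in the Lurasidone libraries, against 5.94, 5.49 and 8.22 FPKM in the control libraries. The groups overlapped, since control replicate 3 was above 2 of the Lurasidone libraries. hlfb did not pass the test, with a log2 fold change of 0.22 (95% interval -0.19 to 0.63, SE 0.18, adjusted p = 0.45 by limma). Whether the change differed between the paralogs was not tested. The quotient of hlfa over hlfb in FPKM was 5.63, 2.91 and 6.55 in the Lurasidone libraries, against 3.84, 3.24 and 2.93 in the control libraries, and the groups overlapped. The quotient of dbpa over dbpb was 4.78, 3.48 and 5.66 in the Lurasidone libraries, against 5.97, 6.74 and 7.92 in the control libraries, and was lower in each Lurasidone library. Lurasidone replicate 2 was the lowest of its group for tefb, hlfa and dbpa and the highest for dbpb, hlfb and nfil3-6.

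Of the nfil3 genes, nfil3-6 (ENSDARG00000087188, chromosome 3, 14099693 to 14103551, minus strand) rose most, and it had the largest fold change of the members. NFIL3, also called E4BP4, opposes the PAR bZIP activators at the D-box and in mouse is needed for the development of natural killer cells. nfil3-6 had 6.79, 7.55 and 6.37 FPKM in the Lurasidone libraries, against 0.577, 0.860 and 0.750 FPKM in the control libraries. These values came from 225, 251 and 209 fragments in Lurasidone and 22, 25 and 27 fragments in control. The groups were far apart, and the spread among the control libraries (19.5% coefficient of variation) was near that of counting alone (20.1%). The means were 6.91 ± 0.602 FPKM in Lurasidone and 0.729 ± 0.143 FPKM in control (SD, n = 3 each), a ratio of 9.47. In log2(FPKM + 1) nfil3-6 rose by 2.19 (95% interval 1.82 to 2.56, SE 0.16, adjusted p = 3.5e-04 by limma), and the log2 ratio of mean FPKM was 3.24. Among all tested genes nfil3-6 ranked 11 by p and 33 by log2 fold change.

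**Figure D3:**
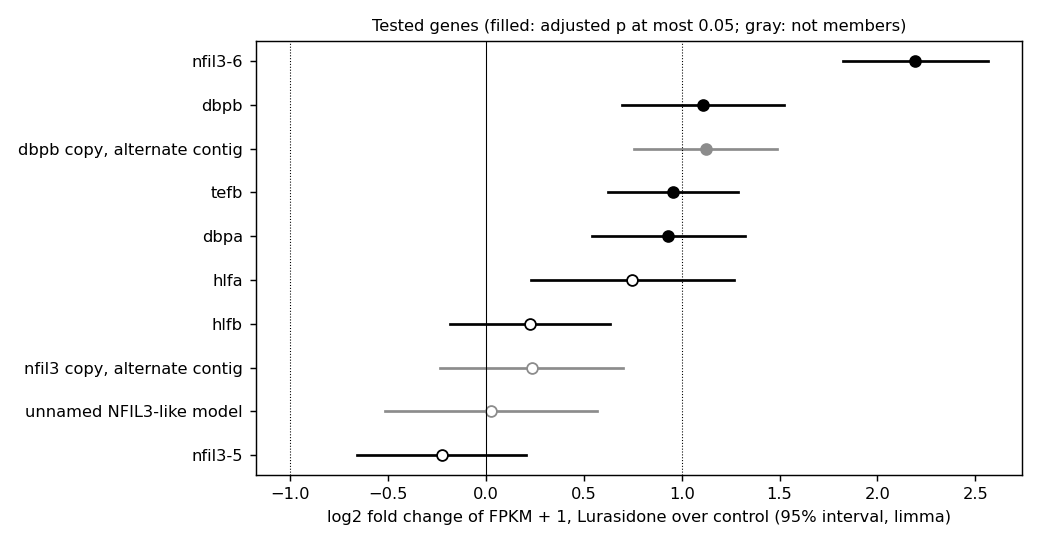
Log2 fold change of FPKM + 1, Lurasidone over control, with its 95% interval from limma for the 7 tested members (black) and 3 further gene models (gray), filled where the adjusted p was at most 0.05. nfil3-6 lay at 2.19 (1.82 to 2.56), apart from the PAR bZIP members, which lay between 0.22 and 1.11. The PAR bZIP gene tefa, not a member and not drawn, lay at 2.20. The dotted lines mark the fold threshold of a DEG.

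The neighboring gene model, 7222 bases from nfil3-6 on the same strand, had no symbol and matched an NFIL3 protein in the table's annotation. It had 3.34, 3.29 and 4.06 FPKM in the Lurasidone libraries, against 4.82, 2.04 and 4.04 FPKM in the control libraries. The groups overlapped, and the log2 fold change was 0.03 (95% interval -0.52 to 0.57, SE 0.24, adjusted p = 0.96 by limma). In the RefSeq annotation of the assembly GRCz12tu, the gene beside nfil3-6 is nfil3-2, a name that was not given to this model in the table. This model was picked for its place and protein match, with its values already known.

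nfil3-5 (ENSDARG00000094965, chromosome 6, 8172227 to 8180042, plus strand) was at a low level in both groups, with 34 to 38 fragments in the Lurasidone libraries and 34 to 85 in the control libraries. It had 0.657, 0.654 and 0.593 FPKM in the Lurasidone libraries, against 0.780, 0.669 and 1.35 FPKM in the control libraries. The groups did not overlap, but only 0.0123 FPKM separated Lurasidone replicate 1 from control replicate 2. nfil3-5 had a log2 fold change of -0.23 (95% interval -0.66 to 0.21, SE 0.19, adjusted p = 0.47 by limma), and without control replicate 3 it was -0.08. With a pseudocount of 0.1 the log2 fold change was -0.44 (adjusted p = 0.50 by limma). By limma voom on the fragments it was -0.50 (adjusted p = 0.40), and the log2 ratio of mean FPKM was -0.56. The coefficient of variation of the control libraries was 39.2%, where counting alone gives 13.2%.

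nfil3 itself (ENSDARG00000042977, chromosome 10, 5414224 to 5419256, plus strand) was listed at 0 in all 6 libraries and was not tested. A limit of 3 fragments corresponds to 0.0996 to 0.131 FPKM in this gene. Its protein match was also that of an unnamed model on an alternate contig of chromosome 10, which held 28, 11 and 15 fragments in the Lurasidone libraries, against 16, 5 and 15 in the control libraries. The groups overlapped in this model, with 0.679 ± 0.334 FPKM in Lurasidone and 0.419 ± 0.177 FPKM in control (SD, n = 3 each). Its change in log2 units was 0.23 (adjusted p = 0.50 by limma, SE 0.21), so a level of 0 at nfil3 describes the primary gene model and not both models together. The remaining nfil3 genes of the table had too few fragments to be tested: nfil3-3 had 1, 0 and 0 fragments in Lurasidone libraries, against 3, 0 and 0 in control libraries. nfil3-4 had 4, 0 and 0 fragments in Lurasidone libraries, against 0 in each control library.

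As summed FPKM, the 5 PAR bZIP genes came to 130, 105 and 129 in the Lurasidone libraries, against 66.4, 59.3 and 71.6 in the control libraries. The nfil3 members came to 7.45, 8.21 and 6.96 FPKM in the Lurasidone libraries, against 1.36, 1.53 and 2.10 FPKM in the control libraries. The sums of activators and of repressors were thus both higher in each Lurasidone library. This did not hold for every gene: nfil3-5 was lower in each Lurasidone library, nfil3 was at 0, and the groups overlapped in hlfb. Within the PAR bZIP sum, tefb and hlfa were the main members in both groups: tefb held 40.7 to 45.9% in Lurasidone and 37.3 to 46.4% in control, and hlfa held 24.2 to 35.4% in Lurasidone and 29.99 to 34.4% in control. The share of dbpb was 2.77 to 4.83% in Lurasidone and 1.86 to 2.42% in control, and that of hlfb was 5.41 to 8.31% in Lurasidone and 8.96 to 11.5% in control, without overlap in either gene. The nfil3 sum was 91.2 to 92.0% nfil3-6 in the Lurasidone libraries and 35.7 to 56.2% in the control libraries.

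The quotient of the PAR bZIP sum over the nfil3 sum was 17.5, 12.8 and 18.5 in the Lurasidone libraries, against 48.9, 38.8 and 34.1 in the control libraries, and every Lurasidone library was below every control library. The means were 16.3 ± 3.03 in Lurasidone and 40.6 ± 7.56 in control (SD, n = 3 each). The direction depended on which gene models were counted. tefb had the highest mean of its class in both groups, whereas nfil3-6 had the highest mean of its class in Lurasidone and nfil3-5 had it in control. Without tefb and nfil3-6, the quotient was 109, 87.1 and 129 in the Lurasidone libraries, against 51.2, 47.6 and 33.2 in the control libraries. With nfil3 at 0, the divisor was then nfil3-5 alone, at 0.593 to 1.35 FPKM from 34 to 85 fragments per library. That quotient is therefore a ratio to 1 low gene and does not describe the nfil3 class. With the alternate copies of dbpb and nfil3 and the unnamed NFIL3-like model added, it was 11.2, 9.12 and 11.4 in the Lurasidone libraries, against 10.01, 15.9 and 10.9 in the control libraries, and the groups overlapped. Left out of every PAR bZIP sum were tefa, with means of 37.6 FPKM in Lurasidone and 7.44 FPKM in control, and an unnamed TEF-like model. That model averaged 12.2 FPKM in Lurasidone and 3.08 FPKM in control. The quotients therefore cover the stated gene models only.

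**Figure D4:**
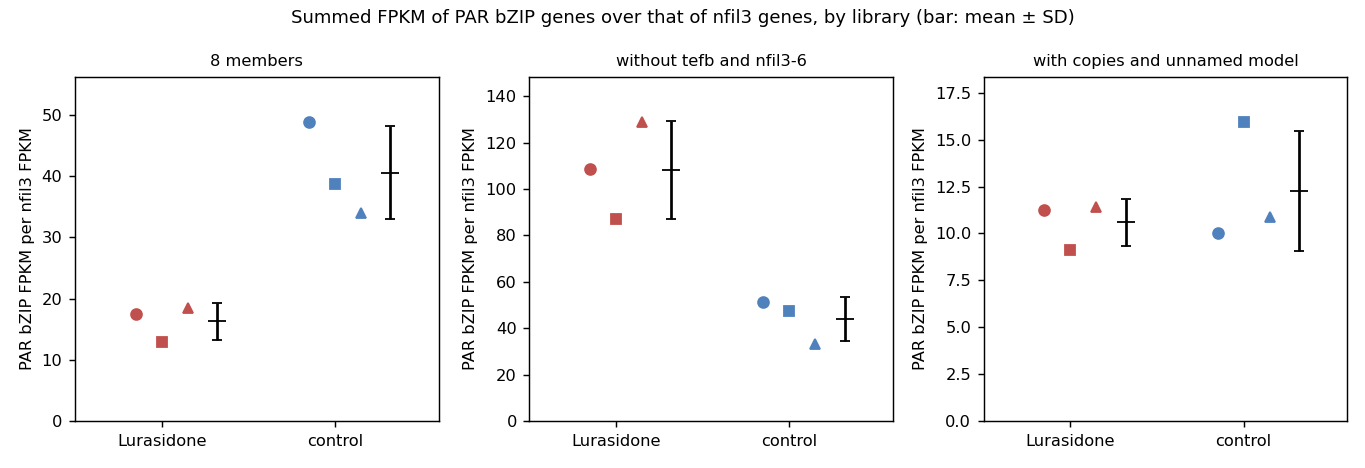
Summed FPKM of the PAR bZIP genes divided by that of the nfil3 genes in each Lurasidone (red, left) and control library (blue, right), with mean and SD in black, for the 8 members, without tefb and nfil3-6, and with the alternate copies and the unnamed NFIL3-like model added. The quotient averaged 16.3 in Lurasidone and 40.6 in control over the 8 members, was higher in Lurasidone without tefb and nfil3-6, and overlapped between the groups with the further models added.

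The members were set against the other genes annotated as bZIP. This family dimerizes through a leucine zipper and includes the FOS, ATF and CREM factors. C/EBP factors are bZIP proteins too, but the DEG cebpd was not under this annotation. The table annotated 88 bZIP genes, of which 71 were tested and 64 of these were not members. Among these 64, 10 were DEGs higher in Lurasidone and 0 were DEGs that were lower, against 2.61% and 1.22% of all tested genes. By adjusted p alone, 13 of the 64 were higher and 2 lower, against 5.79% and 3.9% of all tested genes. By limma voom the DEGs among the 64 were 12 higher and 1 lower, against 1170 and 527 among all genes of that fit. For voom, the share of all genes was not worked out. The median log2 fold change was 0.93 in the tested members and 0.17 in the 64 others. On log2(FPKM + 1), nfil3-6 at 2.19 was second among the 71 tested bZIP genes to tefa, the PAR bZIP gene left out of the members. tefa rose by 2.20 on this scale (adjusted p = 5.6e-04 by limma, SE 0.19). Its level was 37.6 ± 5.92 FPKM in Lurasidone and 7.44 ± 1.61 FPKM in control (SD, n = 3 each). By the ratio of mean FPKM, which was 9.47 for nfil3-6, tefa rose less than nfil3-6. An unnamed model with a TEF protein match, on an alternate contig of chromosome 12, the chromosome of tefa, was also higher, with 12.2 ± 0.282 FPKM in Lurasidone and 3.08 ± 0.605 FPKM in control (SD, n = 3 each). The remaining DEGs among these genes were fosb, fosab, jdp2b, fosl1a, fosl2, atf3, crema and the copy of dbpb. These names were picked with the values known.

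**Figure D5:**
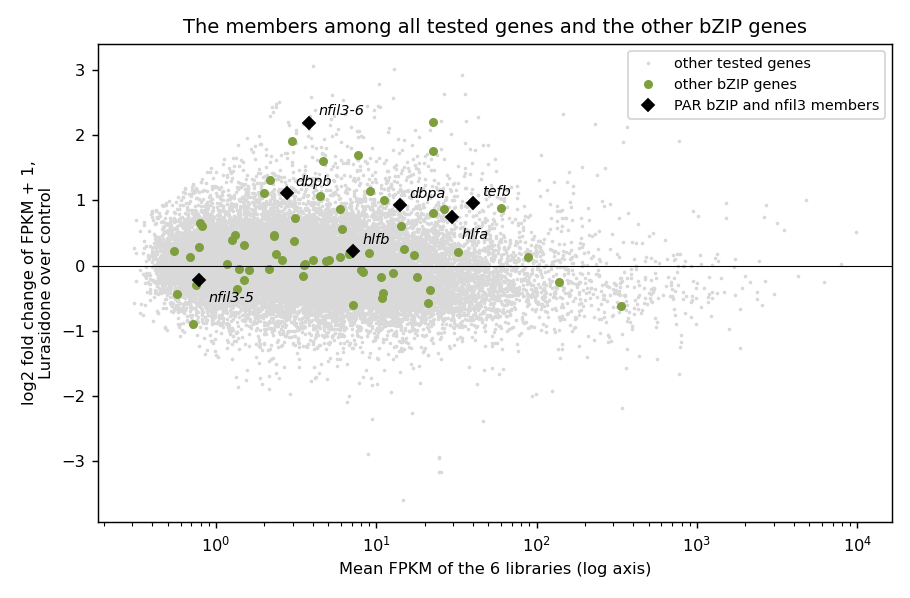
Log2 fold change of FPKM + 1, Lurasidone over control, against the mean FPKM of the 6 libraries on a log axis, for the 23409 tested genes (gray), the 64 other bZIP genes (green) and the 7 tested members (black). Of the members, nfil3-6 at 2.19 and dbpb at 1.11 passed the fold threshold, and nfil3-5 at -0.23 was the only one below 0.

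Genes of the clock around the members were read from 6 lists, with per2 and cry1a in more than one. Of all tested genes, the base for every list below, 2.61% were DEGs that were higher and 1.22% DEGs that were lower. By adjusted p alone, 5.79% were higher and 3.9% lower. For the unadjusted p and for limma voom this share was not worked out. Of the E-box activators, the clock and arntl genes that drive the clock's E-box, 4 were tested and 0 were higher or lower by adjusted p (limma). At an unadjusted limma p under 0.05, 1 was higher and 1 lower, limma voom called 0 of them, and the median log2 fold change of the 4 was 0.30. Of the 13 tested E-box repressors, the per, cry, bhlhe and ciart genes, 9 were DEGs higher in Lurasidone and 0 were lower, and the median was 1.18. At an unadjusted limma p under 0.05, 1 of them was lower, and by limma voom 0 were. The period gene per1a had 6.12 ± 0.770 FPKM in Lurasidone and 1.02 ± 0.186 FPKM in control (SD, n = 3 each), 1.82 higher in log2 units (adjusted p = 7.9e-04 by limma, SE 0.17). The cryptochrome cry2 had 19.9 ± 1.38 FPKM in Lurasidone and 6.48 ± 0.340 FPKM in control (SD, n = 3 each), a log2 fold change of 1.48.

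Of the 9 tested receptors that bind the ROR element, 3 were DEGs higher in Lurasidone, with a median of 0.69, and 0 were lower at an unadjusted limma p under 0.05 or by limma voom. The receptor nr1d1, which encodes Rev-erb alpha, had 59.9 ± 8.61 FPKM in Lurasidone and 12.1 ± 2.07 FPKM in control (SD, n = 3 each), and it rose by 2.22 in log2 units (adjusted p = 4.1e-04 by limma, SE 0.18). Its paralog nr1d2a had 55.0 ± 7.07 FPKM in Lurasidone and 23.7 ± 2.05 FPKM in control (SD, n = 3 each), with a log2 fold change of 1.18. Both nr1d1, whose mouse counterpart represses Nfil3, and nfil3-6 were higher in each Lurasidone library. nfil3-5 was lower in each, with the groups only 0.0123 FPKM apart. Whether nr1d1 acts on any nfil3 gene here was not tested.

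Of the 9 tested genes known as light-induced D-box targets in fish, 5 were DEGs higher in Lurasidone, 7 were higher by adjusted p and 0 were lower at an unadjusted limma p under 0.05 or by limma voom. Their median was 1.11. The photolyase-related gene cry5 had 6.73 ± 0.996 FPKM in Lurasidone and 1.16 ± 0.231 FPKM in control (SD, n = 3 each), 1.84 higher in log2 units (adjusted p = 8.1e-04 by limma, SE 0.18). The gene cry-dash had 30.1 ± 3.88 FPKM in Lurasidone and 9.44 ± 0.723 FPKM in control (SD, n = 3 each), a log2 fold change of 1.57. A list of PAR bZIP targets in mouse gave 6 tested genes here, and whether each mouse counterpart is such a target was not checked. Of these 6, 1 was a DEG. This was nr1i2, the gene for the pregnane X receptor of drug metabolism, with 6.47 ± 0.447 FPKM in Lurasidone and 2.04 ± 0.966 FPKM in control (SD, n = 3 each) and a rise of 1.34 in log2 units (adjusted p = 0.0086 by limma). The others were alas1, pora, porb, pdxka and pdxkb, which did not pass the test, and the median of the 6 was 0.28. At an unadjusted limma p under 0.05, 3 of the 6 were higher and 1 lower, and by limma voom 0 were lower. The lower gene was alas1, with a log2 fold change of -0.68 (adjusted p = 0.18 by limma), and its groups overlapped.

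Of the 5 tested genes with a C/EBP symbol, 1 was a DEG and 3 were higher by adjusted p. C/EBP factors are bZIP proteins that can bind sites like the D-box, but cebpz, 1 of the 3, shares only the symbol stem. cebpz rose by 0.76 in log2 units (adjusted p = 0.029 by limma). The DEG was cebpd, with 283 ± 71.2 FPKM in Lurasidone and 97.8 ± 20.0 FPKM in control (SD, n = 3 each) and a rise of 1.51 in log2 units (adjusted p = 0.0056 by limma). The median log2 fold change of the 5, cebpz among them, was 0.74.

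The gene whose profile over the 6 libraries was most like that of each member was sought among 8499 protein-coding genes with a symbol and a mean of at least 5 FPKM, by the root mean square difference of log2(FPKM + 1) centered on each gene's mean. For nfil3-6 it was myhz2, a fast muscle myosin heavy chain gene, at a difference of 0.079, and 2 genes lay within 0.1. myhz2 averaged 599 FPKM in Lurasidone and 137 FPKM in control, a log2 fold change of 2.13 against 2.19 for nfil3-6. The likeness holds on log2(FPKM + 1) only, since by the ratio of mean FPKM, 9.47, nfil3-6 rose more than myhz2. For tefb the nearest gene was gtf3aa (0.067), for dbpa trim101 (0.061) and for dbpb gcdha (0.068). For hlfa the nearest was CU929160.1 at 0.128, and 0 genes lay within 0.1. For hlfb it was dctn3 (0.021), with 74 genes within 0.1, and for nfil3-5 it was aqp9b (0.039), with 25. The profiles of hlfb and nfil3-5, flat on log2(FPKM + 1), thus had many near neighbors, and the profile of hlfa had none within that distance. nfil3-5 is a low gene, whose change appears smaller on this scale, and its log2 ratio of mean FPKM was -0.56.

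The summed levels of tissue markers overlapped between the groups for liver, exocrine pancreas and lens and did not overlap for muscle, intestine, retina and pineal, brain and blood. Of the 4 tested exocrine pancreas markers, 1 was higher in Lurasidone by adjusted p (limma). The 5 muscle markers came to 2046 to 2211 FPKM in Lurasidone and 1223 to 1869 FPKM in control libraries, and 1 of the 4 that were tested was a DEG, higher in Lurasidone. No other muscle marker was higher or lower by adjusted p (limma). Among the 5 was myhz2, the gene nearest to nfil3-6, with means of 599 FPKM in Lurasidone and 137 FPKM in control. Whether the muscle sums would overlap without myhz2 was not worked out. The 6 retina and pineal markers came to 2521 to 3337 FPKM in Lurasidone and 3909 to 5526 FPKM in control libraries. By adjusted p (limma) 2 of them were lower, and 1 of these was a DEG. The 6 brain markers came to 340 to 357 FPKM in Lurasidone and 394 to 416 FPKM in control libraries, and 1 was lower by adjusted p (limma). The 4 intestine markers came to 303 to 395 FPKM in Lurasidone and 417 to 459 FPKM in control libraries, and 0 passed the adjusted p threshold. The 4 blood markers came to 286 to 330 FPKM in Lurasidone and 499 to 700 FPKM in control libraries. Of the 3 that were tested, 1 was a DEG, lower in Lurasidone. Of all single tested genes, the groups did not overlap in 17.1% with higher and 16.2% with lower values. The part of these tissues in the levels of the PAR bZIP and nfil3 genes was not tested.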

How the data were processed

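The deposited table gave FPKM per gene and library, made by the authors from paired-end fragments on Ensembl genes and additional gene models, beside gene lengths. The submitters' processing notes name the builds GRCz11 and danRer11, and the aligner and counter were not given in the sources used here. Alternate contigs carried 4321 of the gene models. FPKM times length gave whole fragments for 100% of the values (tolerance 0.05). Log2(FPKM + 1) was fitted with limma 3.58.1 (lmFit, eBayes with trend) in R 4.3.3 on the group alone, and p was adjusted after Benjamini-Hochberg over all 23409 tested genes. The script was tested on simulated data. Figures were drawn with matplotlib 3.10.9.

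The named genes were all members, the nfil3 genes of the table, up to 2 DEGs per list by adjusted p, and the gene most like each member. The other bZIP DEGs, the tested genes of the list of mouse PAR bZIP targets and the further gene models fall outside this rule. They were named after their values were seen. The members and lists were chosen with earlier results of these data known. Alternatives were no filter, a pseudocount of 0.1, a filter at 5 FPKM, median-ratio scaling, quantile normalization, no variance trend, limma voom on the fragments of genes with 10 or more in all, the replicate number as a block, leaving out each library, and the quotient without tefb and nfil3-6. The sums with alternate copies and the unnamed NFIL3-like model were chosen after seeing the data. Intervals and limits cover the spread of these libraries and counting error only. Promoter motifs were not analysed here.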

Additional observations from a re-analysis of the deposited data

How the results depend on the processing

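Over the 103 values of member fold changes under the alternatives, 98 kept their direction and their side of the adjusted p threshold, 2 lost it, 3 gained it and 0 changed sign. Those that lost it were dbpa without Lurasidone replicate 3 (log2 fold change 0.87) and without control replicate 1 (0.95), in a range of 0.79 to 1.05. Those that gained it were hlfa with limma voom (0.77), without Lurasidone replicate 2 (1.00; range when a library was left out 0.59 to 1.00) and with the replicate number as a block (0.75, limma adjusted p = 0.048). The replicate block changed no other member call. Same-numbered libraries did not deviate together, with correlations of 0.118, -0.103 and 0.0056, and Lurasidone replicate 2 correlated best with control replicate 3 (0.189). With the fold threshold included, tefb became a DEG under quantile normalization (1.06) and without Lurasidone replicate 2 (1.02), hlfa without Lurasidone replicate 2 (1.00) and dbpa without control replicate 3 (1.05), while dbpb was not one without Lurasidone replicate 2 (0.98). Member DEGs were then 3, and they were 1 with the filter of 5 FPKM, under which dbpb was not tested. The log2 ratio of the quotients was -1.32, and between -1.43 and -1.16 when a library was left out. With the alternate copies and the unnamed NFIL3-like model added, but neither tefa nor the TEF-like model, it was -0.21. Without tefb and nfil3-6, where nfil3-5 alone was the divisor, it was 1.30. The cause of the changed calls was not tested. The DEGs among all genes, 610 higher and 286 lower, were 917 and 445 with the pseudocount of 0.1, 350 and 190 with the filter of 5 FPKM, 1170 and 527 with voom and 506 and 173 without a filter. The lower DEGs were 137 without control replicate 1 and 537 without control replicate 3. Few fragments lay on nfil3-3, nfil3-4 and nfil3-5.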
